A study of Rattus norvegicus with 18 samples.

Results

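Adult liver runs glucose metabolism with isozymes of its own, and 8 genes that set such isozymes beside counterparts of other tissues or of fetal liver were followed in the livers of rats given a hepatocarcinogen. The genes were Hk1, Hk2, Pklr, Pkm, Aldoa, Fbp1, Pck1 and Ppp1r3c, a set chosen by name with earlier results of these data known. They are 8 of the 10914 genes tested. Their 17 probes were found by RefSeq accession, and each gene is represented by the probe with the highest mean over the 18 arrays. Ppp1r3c fits the label of a liver isozyme least, since it encodes a phosphatase subunit and not an enzyme of the pathway.

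Male F344/NSlc rats were bought at 5 weeks of age and acclimatised for 1 week, and the liver RNA of each of 18 rats was read on a separate Agilent array with a single dye. There were 6 groups of 3 rats. Carbon tetrachloride (CCl4), a liver toxicant that is not held to damage DNA directly, was dosed at 100 mg/kg, with corn oil as its vehicle. N-nitrosodiethylamine (DEN), whose metabolites alkylate DNA, was dosed at 4 mg/kg, with saline as its vehicle. Both were given every day by gavage at 5 mL/kg, and livers were taken at day 84 or day 28. The controls of each day are called vehicle in the sample titles and untreated rats on basal diet in the protocol, so a control gavage cannot be told from none. Each compound came with its own vehicle, so compound and vehicle cannot be told apart in the comparisons below. By its title, the study was after genes that gain methylation and lose expression with non-genotoxic carcinogens; methylation was not analysed here.

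Hexokinases place a phosphate on glucose when it enters a cell, and pyruvate kinases close glycolysis. In adult hepatocytes the last step is made by the liver form of pyruvate kinase, the product of Pklr, which red cells also use. Most other tissues, fetal liver and dividing cells use Hk1, Hk2 and the muscle-type pyruvate kinase gene Pkm, whose splice forms M1 and M2 were not told apart by these probes. Aldoa encodes the aldolase of muscle and of many growing tissues. Gluconeogenesis, by which fasting liver makes glucose, passes through cytosolic phosphoenolpyruvate carboxykinase (Pck1) and fructose-1,6-bisphosphatase (Fbp1). Ppp1r3c brings protein phosphatase to glycogen, where glycogen synthase is switched on.

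RefSeq promoter windows (GRCr8, 250 bases before to 50 bases after the annotated start) were held for all 8 genes, with more than 1 window for Hk1 and Aldoa. Those of Pklr, Pck1 and Ppp1r3c are shown because these genes gave the largest falls, and that of Pkm because its changes opposed those of Pklr. They lie at chr2:176841014-176841313 (plus strand), chr3:182348322-182348621 (plus), chr1:243878478-243878777 (minus) and chr8:68953385-68953684 (plus). Capitals mark matches, on either strand, to 4 motifs chosen after the sequences were seen: the layout of a carbohydrate response element (CACGNG, any 5 bases, then CNCGTG), TNACGTCA (a cAMP response element), CACGTG (an E-box) and GGGCGG (a GC box).
Pklr: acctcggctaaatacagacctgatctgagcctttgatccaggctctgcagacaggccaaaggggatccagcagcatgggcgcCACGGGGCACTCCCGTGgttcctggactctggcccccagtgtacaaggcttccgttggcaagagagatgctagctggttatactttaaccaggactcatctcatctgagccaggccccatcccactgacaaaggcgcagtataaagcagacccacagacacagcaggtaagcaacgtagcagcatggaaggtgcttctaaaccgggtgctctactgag
Pck1: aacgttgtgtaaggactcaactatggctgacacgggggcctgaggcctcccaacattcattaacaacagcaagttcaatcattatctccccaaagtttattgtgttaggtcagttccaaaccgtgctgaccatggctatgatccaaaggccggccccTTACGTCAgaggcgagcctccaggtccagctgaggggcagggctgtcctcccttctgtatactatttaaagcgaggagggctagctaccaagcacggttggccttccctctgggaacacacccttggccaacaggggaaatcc
Ppp1r3c: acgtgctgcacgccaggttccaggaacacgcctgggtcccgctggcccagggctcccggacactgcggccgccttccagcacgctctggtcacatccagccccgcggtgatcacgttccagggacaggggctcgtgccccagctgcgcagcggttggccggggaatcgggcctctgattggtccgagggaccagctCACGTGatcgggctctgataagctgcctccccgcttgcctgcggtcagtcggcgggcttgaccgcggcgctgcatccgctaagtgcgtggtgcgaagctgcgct
Pkm: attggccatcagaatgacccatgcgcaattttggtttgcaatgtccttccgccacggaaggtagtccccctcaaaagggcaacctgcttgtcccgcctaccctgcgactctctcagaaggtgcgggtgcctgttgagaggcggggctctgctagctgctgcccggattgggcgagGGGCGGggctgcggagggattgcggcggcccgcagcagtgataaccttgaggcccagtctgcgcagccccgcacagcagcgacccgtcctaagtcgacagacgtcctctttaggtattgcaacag
The capitals in Pklr are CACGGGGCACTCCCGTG, which starts at position -168 from the annotated start, and 0.0329% of the 33469 promoter windows held a match to that layout. Those in Pck1 are TTACGTCA, starting at position -93, and 3.25% of windows held a match to that motif. The capitals in Ppp1r3c are CACGTG at position -54 (6.42% of windows), and those in Pkm are GGGCGG at position -75 (33.1% of windows). These matches describe the letters only, since no binding was measured.

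Between 47.2% and 57.0% of an array's probes were well above background, and arrays of a group correlated at 0.976 to 0.996 over the 10914 genes tested. Levels below are log2 processed signals minus the array's 75th percentile, and levels of different probes are not compared with each other. Tests come from 1 limma fit over all 18 arrays, with p-values adjusted over the 10914 genes and a threshold of 0.05. The arrays lay on 3 slides, so that CCl4 livers of both days were split. At day 84, replicate 1 was on the slide of the DEN and control livers of that day and replicates 2 and 3 were on another. At day 28, CCl4 replicates 1 and 2 shared a slide with the DEN and control livers of that day. Replicate 3 was on the slide of the DEN and control livers of day 84. Scaling to spike-in probes in place of the percentile raised every difference from control on the log2 scale by 0.56 with CCl4 and 0.72 with DEN at day 84, and by 0.80 and 0.41 at day 28, so that rises became larger and falls became smaller or turned. Among the CCl4 livers of day 28, replicate 2 lay farthest from the control mean in 7 of the 8 genes. Liver tissue was plain in the marker genes: 6 of 6 hepatocyte markers were well above background on all arrays, and 3 of 3 measured skeletal muscle markers (Ckm, Acta1 and Myh4) were well above background on none. In RNA of whole tissue, fewer cells of a type and less RNA per cell cannot be told apart.

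With CCl4, the genes of adult liver fell and their counterparts rose at both days. Of the 7 genes other than Hk2, 3 rose (Hk1, Pkm and Aldoa) and 4 fell (Pklr, Fbp1, Pck1 and Ppp1r3c) against control at day 84, and the counts were 3 and 4 at day 28 as well. Such calls were common: 64.3% of all genes tested were called at day 84 (28% higher and 36.3% lower) and 59.7% at day 28 (26.1% higher and 33.6% lower). The hexokinase gene Hk2 entered the test only because the CCl4 arrays were bright enough, so its calls are not counted. With DEN, 3 of the 7 rose and 4 fell at day 84, where 52.7% of genes were called (21.6% higher and 31.1% lower). At day 28 with DEN, 0 of the 7 rose and 1 fell (Ppp1r3c), where 15% of genes were called (7.82% higher and 7.19% lower). Unadjusted p-values under 0.05 were reached by 6 of the 8 genes in that comparison and by 31.6% of all genes. For the 7 genes, all 3 DEN arrays of day 28 lay outside the range of the 3 controls, as did those of 42.8% of all genes. CCl4 and DEN were compared with the same control livers, so their results are not independent.

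**Figure D1:**
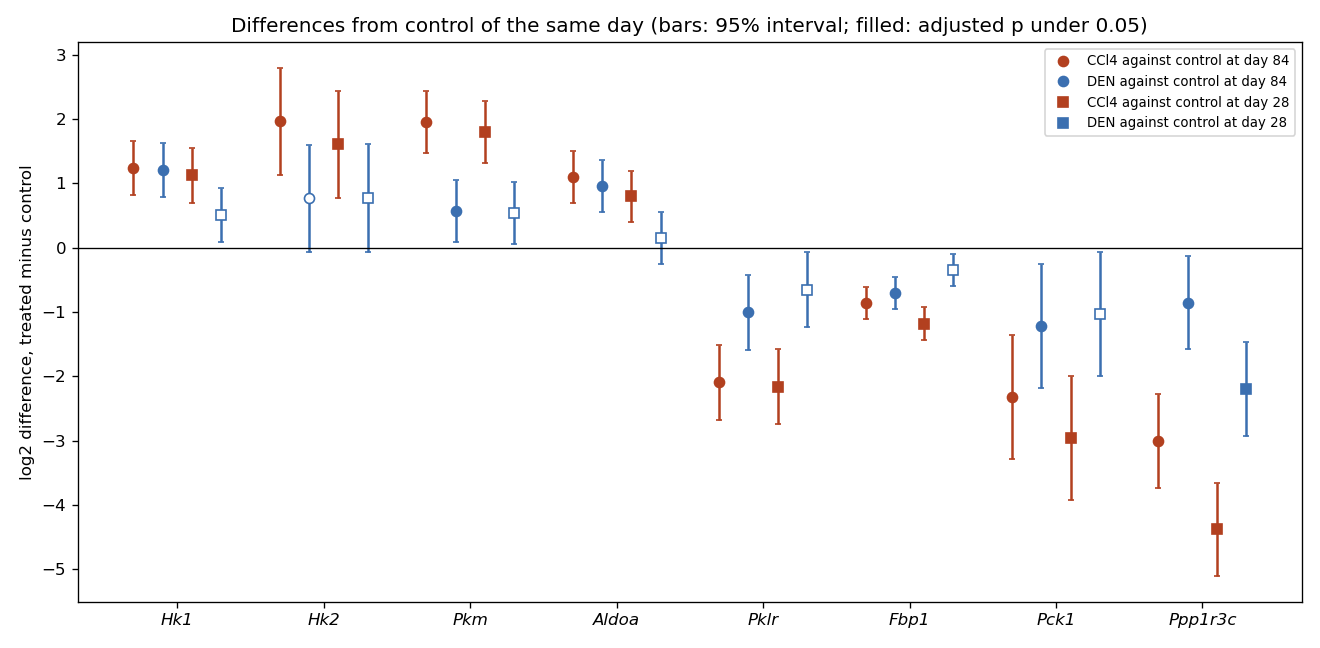
Log2 differences from control of the same day for the 8 genes, with 95% intervals (vertical axis), for CCl4 and DEN at day 84 (circles) and day 28 (squares). Filled symbols passed an adjusted p of 0.05 (limma). Ppp1r3c with CCl4 at day 28 lies lowest, at -4.38, and the Hk2 values, which turn negative with normexp background correction, rest on control arrays that were not well above background.

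The pyruvate kinase genes moved in opposite directions. Pklr stood at 2.68, 2.96 and 2.38 in the 3 CCl4 livers of day 84, at 3.96, 3.61 and 3.73 in DEN livers and at 4.64, 4.90 and 4.77 in control livers. No group overlapped another: CCl4 livers were lowest, DEN livers in between and controls highest. Against control this was a fall by 2.10 on the log2 scale with CCl4 (SE 0.27, 4.28-fold lower, adjusted p = 1.80e-05) and a 2.01-fold fall with DEN (adjusted p = 0.00714). With arrays scaled to spike-in probes the DEN value was -0.28 and missed the threshold (adjusted p = 0.297). At day 28, Pklr stood at 3.45, 2.15 and 3.32 in CCl4 livers, at 4.45, 4.37 and 4.60 in DEN livers and at 5.46, 5.10 and 4.84 in controls. The groups were again apart and in the same order, and CCl4 replicate 2 was the lowest of all arrays. The fall with CCl4 was 4.47-fold (log2 -2.16, adjusted p = 1.76e-05), and the log2 difference was -1.75 without replicate 2 and -1.36 under spike-in scaling. The DEN value of -0.66 did not pass the test (adjusted p = 0.115). Pklr is also the red cell gene, and the summed signal of 3 measured erythroid markers of 4 listed, relative to the 75th percentile, was 277 to 555 in CCl4 livers of day 84, 289 to 433 in DEN livers and 742 to 860 in controls. At day 28 that sum was 223 to 386 in CCl4 livers, 635 to 755 in DEN livers and 746 to 908 in controls. The single markers were split: 1 was called higher and 2 lower with CCl4 at day 84, and 0 higher and 3 lower with DEN. At day 28, 0 were higher and 2 lower with CCl4, and 0 were higher and 0 lower with DEN. The part of red cells in the Pklr values was not tested.

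Pkm moved the other way. It stood at 1.98, 1.66 and 1.87 in CCl4 livers of day 84, at 0.50, 0.48 and 0.38 in DEN livers and at -0.12, 0.016 and -0.23 in controls. The CCl4 livers were far above both other groups, and the DEN livers narrowly above controls. Pkm rose 3.87-fold with CCl4 (log2 1.95, SE 0.22, adjusted p = 6.45e-06) and 1.48-fold with DEN (log2 0.56, adjusted p = 0.0476). That DEN call was lost when any 1 of the 6 arrays compared was left out, with adjusted p between 0.0634 and 0.125, and under 5 of 14 other alternatives (adjusted p up to 0.0653), while spike-in scaling gave 1.29. At day 28, Pkm stood at 1.42, 2.46 and 1.23 in CCl4 livers, at 0.54, 0.41 and 0.41 in DEN livers and at -0.26, 0.0042 and -0.018 in controls. CCl4 livers were again highest and did not overlap the rest, with replicate 2 the highest of all 18 arrays. Pkm rose 3.47-fold with CCl4 (log2 1.79, adjusted p = 1.62e-05; log2 1.42 without replicate 2), and the DEN value was 0.54 (adjusted p = 0.113). The DEN value passed under spike-in scaling (0.95, adjusted p = 0.0261), with the second probe (0.67, adjusted p = 0.0438) and with only the groups compared (adjusted p = 0.0219). A second Pkm probe gave 2.21 and 1.90 with CCl4 at day 84 and day 28, and the remaining probe was well above background on none of the arrays.

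**Figure D2:**
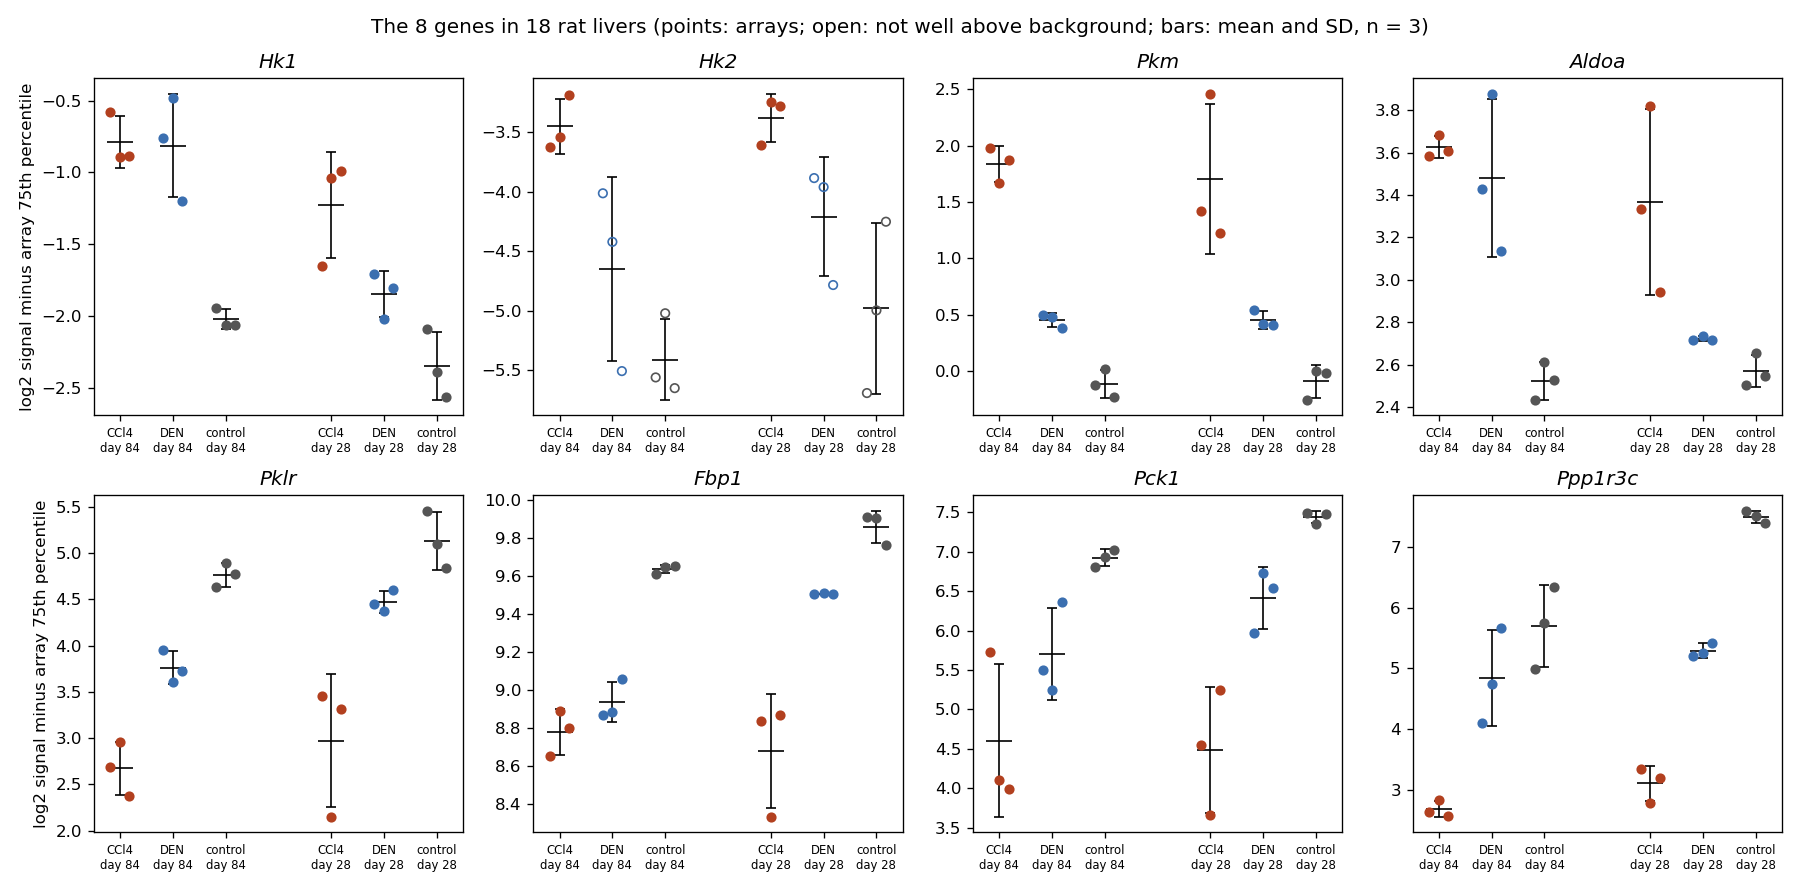
Level of each gene (vertical axis, log2 signal minus the array's 75th percentile) in each of 18 livers, with CCl4, DEN and control of day 84 at left and of day 28 at right. Points are arrays, bars the mean and SD of 3, and open points were not well above background, which was the case for Hk2 in every DEN and control liver. In the upper row CCl4 livers lie above controls (for Hk2 not with normexp background correction), and in the lower row they lie below.

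Within an array, scaling cancels from the difference between the Pkm and Pklr probes, and only its change between groups can be read. That difference was -0.71, -1.29 and -0.51 in CCl4 livers of day 84, -3.46, -3.13 and -3.35 in DEN livers and -4.76, -4.88 and -5.00 in controls. The ratio of the 2 signals was thus 16.5-fold higher with CCl4 and 2.97-fold higher with DEN than in controls. At day 28 the ratio was 15.5-fold higher with CCl4, but the 3 livers spread widely, at -2.03, 0.32 and -2.09 against -5.72, -5.09 and -4.85 in controls. DEN livers of day 28 stood at -3.91, -3.96 and -4.20, a 2.30-fold higher ratio than in controls. At both days the 3 groups did not overlap. These differences carry no test.

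The hexokinase side showed the same direction. Hk1, the hexokinase found in most tissues, stood at -0.58, -0.89 and -0.89 in CCl4 livers of day 84, at -0.76, -0.48 and -1.20 in DEN livers and at -1.94, -2.06 and -2.06 in controls. The livers of both treated groups lay above all controls and overlapped each other. Hk1 rose 2.35-fold with CCl4 (log2 1.23, adjusted p = 9.52e-05) and 2.31-fold with DEN (log2 1.21, adjusted p = 0.000217). Under normexp background correction the log2 differences were 0.54 and 0.55, and under spike-in scaling the DEN value was 1.93. At day 28 it stood at -1.65, -1.04 and -0.99 in CCl4 livers, at -1.71, -2.02 and -1.81 in DEN livers and at -2.09, -2.39 and -2.56 in controls. Here CCl4 livers were highest, with replicate 1 only just above the DEN livers. The rise with CCl4 was 2.17-fold (log2 1.12, adjusted p = 0.000247), and the DEN value was 0.50 (adjusted p = 0.0959; 0.91 and adjusted p = 0.0169 under spike-in scaling). With normexp background correction the CCl4 value of day 28 was 0.28 and missed the threshold (adjusted p = 0.0550), and under spike-in scaling it was 1.92.

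Hk2, the insulin-responsive hexokinase of muscle and fat, was dim. Its probe was well above background in all 3 CCl4 livers at each day and in 0 of the 12 DEN and control livers. It stood at -3.63, -3.54 and -3.19 in CCl4 livers of day 84, at -4.01, -4.42 and -5.51 in DEN livers and at -5.56, -5.02 and -5.65 in controls. At day 28 the values were -3.61, -3.25 and -3.28 in CCl4 livers, -3.89, -3.96 and -4.78 in DEN livers and -5.69, -5.00 and -4.25 in controls. On the processed signal, where the dim groups give only a bound, Hk2 was at least 1.24-fold higher with CCl4 than in controls at day 84 and at least 1.16-fold higher at day 28. The bound is the mean of the CCl4 arrays against the lowest signal well above background on each control array, or the probe's own signal where that was higher. These bounds do not hold under another background correction, since with normexp the log2 difference was -0.035 at day 84 and -0.24 at day 28 (adjusted p = 0.0379). A second Hk2 probe was well above background on no array.

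For Aldoa, as for Hk1, DEN and CCl4 livers of day 84 lay close together. It stood at 3.58, 3.68 and 3.61 in CCl4 livers, at 3.43, 3.88 and 3.14 in DEN livers and at 2.43, 2.61 and 2.53 in controls. Both treated groups were above all controls, and the DEN livers spanned the CCl4 values. Aldoa rose 2.15-fold with CCl4 (adjusted p = 0.000162) and 1.94-fold with DEN (log2 0.96, adjusted p = 0.000845), and the log2 differences were 1.66 and 1.68 under spike-in scaling. At day 28 CCl4 livers stood at 3.33, 3.82 and 2.94, DEN livers at 2.72, 2.74 and 2.72 and controls at 2.51, 2.65 and 2.55. The rise with CCl4 was 1.74-fold (log2 0.80, adjusted p = 0.00221; log2 0.57 without replicate 2 and 1.60 under spike-in scaling), and the DEN difference was 0.15 (adjusted p = 0.603).

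On the gluconeogenic side, Fbp1 showed the smallest falls. It stood at 8.65, 8.89 and 8.80 in CCl4 livers of day 84, at 8.87, 8.88 and 9.06 in DEN livers and at 9.61, 9.65 and 9.65 in controls. All treated livers lay below all controls, with little spread within a group. Fbp1 fell 1.81-fold with CCl4 (log2 -0.86, SE 0.12, adjusted p = 2.65e-05) and 1.63-fold with DEN (log2 -0.70, adjusted p = 0.000264). The CCl4 value was -0.30 under spike-in scaling (adjusted p = 0.0411) and -0.32 after quantile normalization (adjusted p = 0.00993). The DEN value was 0.021 when arrays were scaled to spike-in probes and -0.13 after quantile normalization (adjusted p = 0.269), so that its direction rests on the scaling. At day 28 Fbp1 stood at 8.84, 8.33 and 8.87 in CCl4 livers, between 9.507 and 9.509 in the DEN livers and at 9.91, 9.91 and 9.76 in controls. It fell 2.27-fold with CCl4 (log2 -1.18, adjusted p = 2.47e-06), with values of -0.38 under spike-in scaling and -0.45 after quantile normalization. The DEN difference of -0.35 did not pass (adjusted p = 0.0564). It passed with slide as a block (adjusted p = 0.0404), with only the groups compared (0.0258) and among probes well above background on all arrays (0.0469), and turned to 0.056 under spike-in scaling (adjusted p = 0.704).

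Fbp2, the muscle fructose-1,6-bisphosphatase, moved the other way. It stood at 2.23, 2.50 and 2.27 in CCl4 livers of day 84, at 0.22, 0.75 and 0.45 in DEN livers and at -0.94, -0.80 and -1.04 in controls. The groups were far apart, with CCl4 9.60-fold above control (adjusted p = 2.21e-08) and DEN 2.64-fold above it (adjusted p = 3.57e-05). At day 28 it stood at 1.35, 1.73 and 1.14 in CCl4 livers, at -0.69, -1.36 and -1.24 in DEN livers and at -2.15, -2.22 and -2.19 in controls. It rose 12.1-fold with CCl4 (adjusted p = 9.25e-09) and 2.13-fold with DEN (adjusted p = 0.00156). Control livers of day 84 were themselves 2.39-fold above those of day 28 (adjusted p = 0.00100), a comparison that coincides with the slides. The skeletal muscle markers were at background in the same livers.

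Pck1, the hormone-regulated gate of gluconeogenesis, fell but varied between rats. It stood at 5.73, 4.10 and 3.99 in CCl4 livers of day 84, at 5.50, 5.25 and 6.36 in DEN livers and at 6.81, 6.93 and 7.03 in controls. All treated livers were below all controls, and CCl4 replicate 1 lay among the DEN livers. Pck1 fell 4.99-fold with CCl4 (log2 -2.32, SE 0.45, adjusted p = 0.000454) and 2.33-fold with DEN (log2 -1.22, adjusted p = 0.0340). On the slide that holds CCl4 replicate 1 with the controls of day 84, the CCl4 difference was -1.20 (adjusted p = 0.0512, with 1 CCl4 array assumed to vary like the other groups), and with slide as a block it was -1.20 too (adjusted p = 0.0258). The DEN call was lost in 5 of 6 fits that left out 1 array (adjusted p up to 0.126), and when arrays were scaled to spike-in probes (-0.50, adjusted p = 0.339) or quantile-normalized (-1.06, adjusted p = 0.0623). At day 28 Pck1 stood at 4.56, 3.66 and 5.25 in CCl4 livers, at 5.97, 6.73 and 6.54 in DEN livers and at 7.50, 7.36 and 7.48 in controls. The 3 groups were apart, and the fall with CCl4 was 7.77-fold (log2 -2.96, adjusted p = 7.77e-05). With DEN the value of -1.03 did not pass (adjusted p = 0.130), but it did with slide as a block (adjusted p = 0.0301) and with only the groups compared (adjusted p = 0.0289).

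Pck2, the mitochondrial form of the same enzyme, rose where Pck1 fell. It was 2.47-fold higher with CCl4 (adjusted p = 2.16e-07) and 1.58-fold higher with DEN (adjusted p = 0.000117) than in controls at day 84. At day 28 it was 2.61-fold higher with CCl4 (adjusted p = 1.66e-07), and DEN livers overlapped controls (log2 0.13, adjusted p = 0.388). The Pck1 to Pck2 ratio was 12.3-fold lower with CCl4 and 3.68-fold lower with DEN at day 84, and 20.3-fold and 2.24-fold lower at day 28. These ratios carry no test. At day 84 the log2 difference was 2.24, 0.44 and 0.37 in CCl4 livers and 2.60, 2.17 and 3.53 in DEN livers. CCl4 replicate 1, on the slide of the controls, thus lay among the DEN livers. G6pc1, the liver glucose-6-phosphatase that releases glucose, fell 9.98-fold with CCl4 (log2 -3.32, adjusted p = 6.52e-05) and 6.05-fold with DEN (log2 -2.60, adjusted p = 0.000808) at day 84. At day 28 it fell 4.05-fold with CCl4 (adjusted p = 0.00341), and the DEN value was -1.33 (adjusted p = 0.0867). Its CCl4 livers of day 84 were split like those of Pck1, at 5.84 in replicate 1 against 3.85 and 3.96 in the others.

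**Figure D3:**
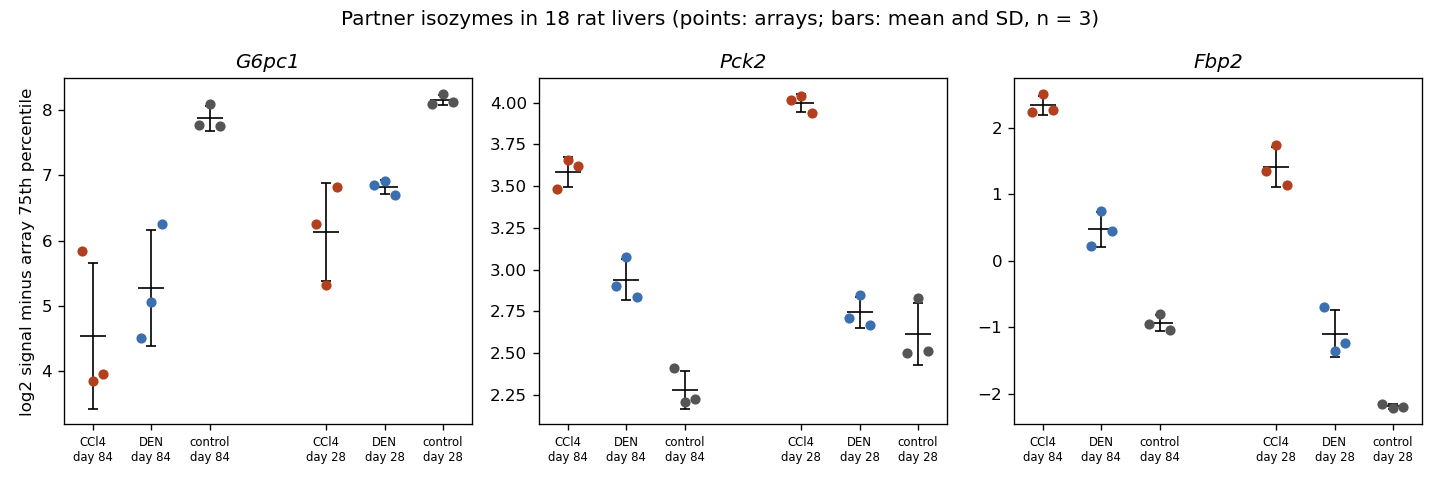
Levels of 3 partner genes (vertical axis, log2 signal minus the array's 75th percentile) in each of 18 livers, with CCl4, DEN and control of day 84 at left and of day 28 at right. Points are arrays and bars the mean and SD of 3. G6pc1 lies lower in CCl4 livers than in controls, and Pck2 and Fbp2 lie higher.

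Ppp1r3c gave the largest falls of the 8 genes with CCl4. It stood at 2.65, 2.84 and 2.58 in CCl4 livers of day 84, at 4.11, 4.75 and 5.67 in DEN livers and at 5.00, 5.75 and 6.34 in controls. CCl4 livers were far below the rest, while DEN livers overlapped controls. It fell 8.03-fold with CCl4 (log2 -3.01, SE 0.34, adjusted p = 5.53e-06), and the DEN fall of 1.81-fold (log2 -0.85) passed narrowly (adjusted p = 0.0472). That DEN call was lost in 4 of 6 fits that left out 1 array (adjusted p up to 0.231), and under 9 of the other alternatives, with a value of -0.13 under spike-in scaling. At day 28 Ppp1r3c stood at 3.34, 2.79 and 3.21 in CCl4 livers, at 5.21, 5.25 and 5.43 in DEN livers and at 7.59, 7.50 and 7.39 in controls. The 3 groups were widely apart, and the falls were 20.8-fold with CCl4 (log2 -4.38, adjusted p = 3.11e-07) and 4.59-fold with DEN (log2 -2.20, adjusted p = 0.000919). Controls of day 84 were 3.47-fold below controls of day 28 (log2 -1.80, adjusted p = 0.00480). That was the single gene of the 8 called between control groups, where 9.77% of all genes were called (5.32% lower). With slide as a block the control value was -1.94 (adjusted p = 0.203), so that day and slide cannot be told apart there. Its 3 probes gave -3.01, -3.11 and -2.90 with CCl4 at day 84.

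**Figure D4:**
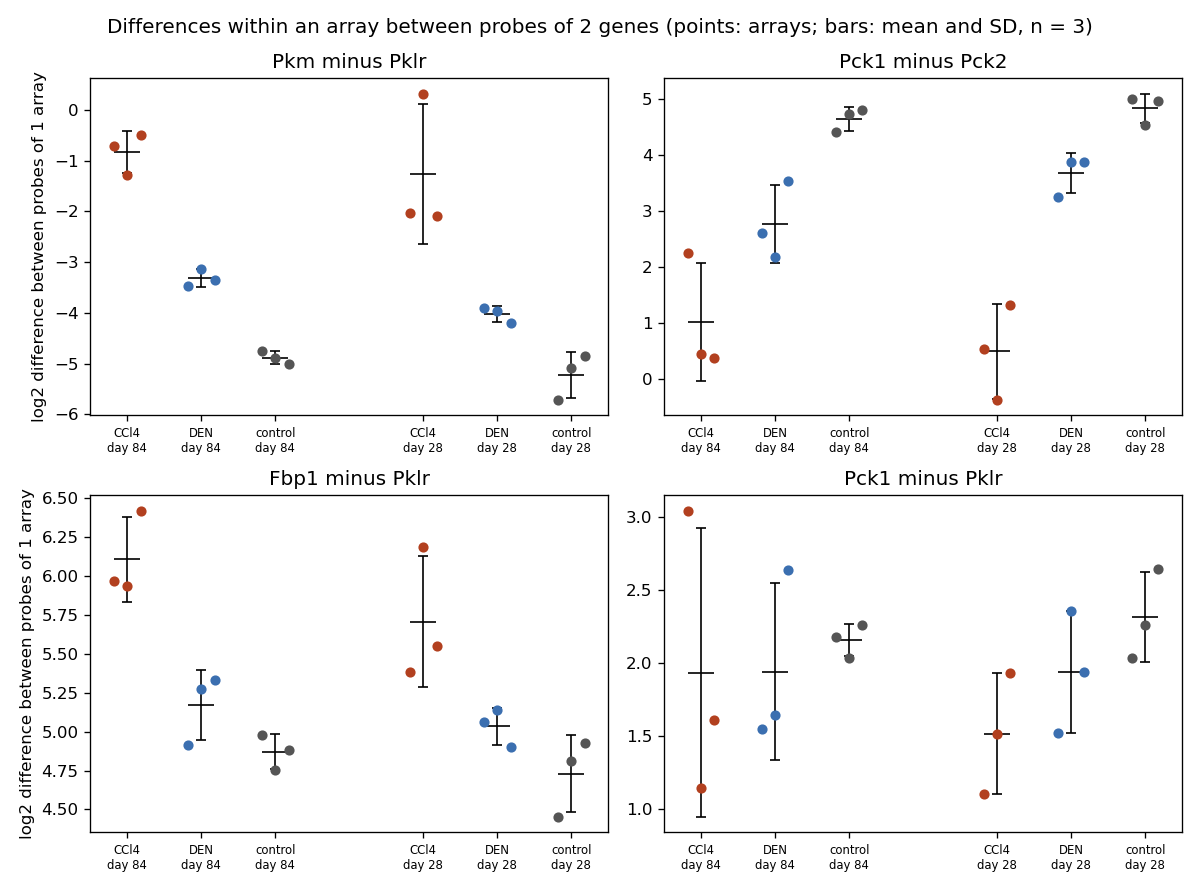
Log2 difference between the probes of a pair of genes on the same array (vertical axis), with CCl4, DEN and control of day 84 at left and of day 28 at right. Points are arrays and bars the mean and SD of 3. For Pkm minus Pklr, CCl4 livers lie highest, DEN livers between and controls lowest at both days; levels carry no meaning, since probes are not calibrated to each other.

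Set directly against DEN, CCl4 livers of day 28 had 3 of the 7 genes other than Hk2 higher and 4 lower, where 45.1% of all genes were called (20.4% higher and 24.7% lower). Such a comparison also sets corn oil against saline. The differences were 1.25 for Pkm (adjusted p = 0.000563), -1.50 for Pklr (adjusted p = 0.000601), -1.93 for Pck1 (adjusted p = 0.00330), -2.18 for Ppp1r3c (adjusted p = 0.000205) and -0.83 for Fbp1 (adjusted p = 0.000102; -0.43 under spike-in scaling and -0.45 after quantile normalization). The calls of Aldoa (0.64) and Hk1 (0.62) were lost without CCl4 replicate 2, at 0.42 and 0.52 (adjusted p = 0.0658 and 0.0822). The Hk1 call was also lost without CCl4 replicate 3, without DEN replicate 2 and under 5 of 14 other alternatives, among them normexp (0.28, adjusted p = 0.0703) and slide as a block (0.50, adjusted p = 0.0719). That of Aldoa was lost with only the groups compared (adjusted p = 0.0711). Under spike-in scaling the values of Aldoa and Hk1 were 1.04 and 1.01. At day 84, 1 of the 7 was higher (Pkm, 1.39, adjusted p = 0.000404) and 2 were lower, where 34.3% of genes were called (18.5% higher and 15.8% lower). These were Pklr at -1.09 (adjusted p = 0.00723) and Ppp1r3c at -2.15 (adjusted p = 0.000337). On the shared slide of day 84 the Ppp1r3c value was -2.19 (adjusted p = 0.0883), and with slide as a block the Pklr value was -1.08 (adjusted p = 0.0762). Pck1 at -1.10 did not pass (adjusted p = 0.0726), and without CCl4 replicate 1 it was -1.66 (adjusted p = 0.00715), but with slide as a block it was 0.020. For Hk1, Aldoa and Fbp1 the 95% intervals of CCl4 minus DEN at day 84 were -0.39 to 0.45, -0.26 to 0.55 and -0.41 to 0.095, and the values of Hk1 and Aldoa were negative under spike-in scaling (-0.14 and -0.018).

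Whether an effect differed between the days was tested for each compound. None of the 8 genes passed for DEN in the limma fit (0 of 8, where 16.1% of all genes were called), although 3 had an unadjusted p under 0.05, as did 32.3% of all genes. These were Aldoa at 0.80 (adjusted p = 0.0532), Ppp1r3c at 1.34 (adjusted p = 0.0716) and Hk1 at 0.71 (adjusted p = 0.0966), each as the effect at day 84 minus that at day 28. The call depended on the settings: Aldoa passed under 6 of 13 alternatives (adjusted p down to 0.0268; 0.0314 with slide as a block), Ppp1r3c under 3 (down to 0.0405), Hk1 under 2 (down to 0.0363) and Fbp1 under 1 (-0.35, adjusted p = 0.0268). For CCl4 the count was 0 of 8 too, where 6.03% of genes were called, with 1 unadjusted p under 0.05 (Ppp1r3c, 1.37, adjusted p = 0.107), against 22.3% of all genes. With slide as a block the CCl4 day difference of Pck1 was 2.14 and passed (adjusted p = 0.0432), against 0.64 without it (adjusted p = 0.602). The CCl4 day difference of Pkm was 0.53 without CCl4 replicate 2 of day 28 (adjusted p = 0.0346), against 0.16 with it. Without DEN replicate 3 of day 84, Aldoa and Hk1 passed for DEN (0.97 and 0.90, adjusted p = 0.0188 and 0.0300), and without DEN replicate 1 or control replicate 3 of day 84 so did Ppp1r3c (1.71 and 1.67, adjusted p = 0.0240 and 0.0296). The partner Pck2 passed for DEN with all arrays (0.53, adjusted p = 0.0223).

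By group mean over all 6 groups, Pklr, Pck1, Fbp1 and Ppp1r3c were ranked alike at the top. Control livers of day 28 came first, then controls of day 84, then DEN livers of day 28 and then of day 84. CCl4 livers came last, and their 2 days overlapped for each of these genes. For Pklr the next groups in that order were apart except for both controls and both CCl4 groups. The other genes were less separate. For Fbp1 and Pck1, DEN livers of day 84 overlapped CCl4 livers of day 84. For Pck1 and Ppp1r3c the DEN livers of the 2 days overlapped, and for Ppp1r3c controls of day 84 overlapped DEN livers of day 28. For Pkm the order was CCl4 of day 84 and day 28, then DEN, then controls, and the 2 days overlapped within each treatment. For Aldoa and Hk1, DEN livers of day 84 ranked between the CCl4 groups and overlapped them. The spread within groups was largest in CCl4 livers of day 28 and DEN livers of day 84, where the median SD over the 8 genes was 0.41 and 0.37, and it was 0.12 in controls at each day.

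Other cell types moved with these genes. The summed signal of 6 hepatocyte markers was 2070 to 2691 in CCl4 livers, 2042 to 2384 in DEN livers and 3396 to 3544 in controls at day 84, and 1838 to 2408, 3444 to 3524 and 3999 to 4171 at day 28. All treated livers were thus below the controls of their day. Over 10 stellate cell and myofibroblast markers, 8 of them well above background on all arrays, the sum was 147 to 223 in CCl4 livers, 39.6 to 48.1 in DEN livers and 23.7 to 27.8 in controls at day 84. At day 28 it was 125 to 261 in CCl4 livers, 51.9 to 63.2 in DEN livers and 30.5 to 54.2 in controls. CCl4 livers stood above all DEN and control livers in this sum at both days. The 4 measured dividing-cell markers of 5 listed summed to 27.2 to 33.5 in CCl4 livers, 14.1 to 20.2 in DEN livers and 2.89 to 4.58 in controls at day 84. At day 28 they summed to 59.7 to 84.7 in CCl4 livers, 7.29 to 14.7 in DEN livers and 5.94 to 6.50 in controls. The 4 measured cholangiocyte markers of 5 listed summed to 6.37 to 8.75, 4.40 to 7.56 and 1.37 to 1.66 in CCl4, DEN and control livers of day 84, and to 2.16 to 5.77, 2.06 to 2.38 and 1.69 to 2.25 at day 28. Over 3 measured sinusoidal endothelium markers of 5 listed, the sum was 20.2 to 21.6, 28.0 to 34.5 and 42.5 to 49.3 in CCl4, DEN and control livers of day 84, and 21.3 to 27.1, 45.0 to 47.2 and 43.7 to 48.2 at day 28. The 5 measured lymphocyte markers of 7 listed summed to 3.54 to 3.89, 1.79 to 2.22 and 1.45 to 1.88 at day 84, and to 3.21 to 5.35, 2.77 to 3.57 and 1.30 to 1.55 at day 28. CCl4 livers were thus below all controls in the endothelial sum and above them in the lymphocyte sum. The 9 macrophage markers summed to 77.5 to 113, 91.1 to 119 and 125 to 147 at day 84, and to 103 to 125, 163 to 171 and 126 to 164 at day 28. Bright genes carry such a sum, and the single macrophage markers were split: 4 were called higher and 4 lower with CCl4 at each day. With DEN, 3 were higher and 0 lower at day 84, and 2 were higher and 0 lower at day 28. The 3 measured neutrophil markers of 4 listed (Elane well above background on none) summed to 1.62 to 3.81, 0.76 to 1.60 and 0.91 to 1.04 at day 84, and to 0.80 to 1.44, 1.13 to 1.53 and 0.78 to 1.34 at day 28. The 3 pancreatic acinar markers, of which Prss1 was well above background on no array, summed to 0.79 to 3.26 in DEN livers of day 84, against 0.051 to 0.065 in controls. The part of any of these cells in the values of the 8 genes was not tested.

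Other enzymes were counted from lists drawn up by pathway, without the 8 genes, and are to be read against the shares of all genes called, which were 64.3% with CCl4 and 52.7% with DEN at day 84 and 59.7% and 15% at day 28. Of 18 glycolytic genes besides the 8, 5 rose and 3 fell with CCl4 at day 84 (44.4% called), with a median log2 difference of 0.036 against -0.097 over all genes tested. With DEN at day 84, 6 rose and 3 fell (50%). At day 28 the counts were 5 and 4 with CCl4 (50%) and 2 and 0 with DEN (11.1%). None of these total shares exceeded that of all genes. The share that rose was 33.3% with DEN at day 84, against 21.6% of all genes. With DEN at day 28 it was 11.1%, or 2 of 18 genes, against 7.82%. With CCl4 it was 27.8% at each day, against 28% at day 84 and 26.1% at day 28. The shares of DEN at day 28 and of CCl4 were thus near those of all genes. Isozymes of other tissues were among those that rose with CCl4 at day 84: Aldoc, the brain aldolase (8.54-fold, adjusted p = 2.16e-07), Pfkp, the platelet phosphofructokinase (2.79-fold), and Ldhb, the heart lactate dehydrogenase (2.49-fold). Ldha, the lactate dehydrogenase that muscle and liver use, fell (log2 -0.93, adjusted p = 1.96e-06). At day 28, Pfkm (1.99-fold) and Pfkp (2.39-fold) rose with CCl4, and Ldhb and Pfkm rose with DEN (log2 0.69 and 0.57). 

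With CCl4, each of the 12 other gluconeogenic genes tested was called, against 64.3% of all genes at day 84 and 59.7% at day 28. At both days 3 rose and 9 fell, with medians of -1.04 at day 84 and -1.23 at day 28 against -0.097 and -0.064 over all genes. With DEN, 2 rose and 5 fell at day 84 (58.3% called, against 52.7% of all genes; median -0.44), and 1 rose and 2 fell at day 28 (25% against 15%; median -0.39). Both DEN medians were smaller in size than the spike-in shifts of 0.72 at day 84 and 0.41 at day 28. Pyruvate carboxylase (Pc), which opens the pathway in mitochondria, fell by 1.28 and 1.12 with CCl4 at day 84 and day 28 and by 1.09 and 0.41 with DEN. The DEN fall of Pc at day 28 was about the size of the spike-in shift of 0.41. The glucose-6-phosphate carrier Slc37a4 fell by 1.46 and 1.53 with CCl4, and by 0.80 with DEN at day 84, little more than the spike-in shift of 0.72. G6pc3, the glucose-6-phosphatase found in most tissues, rose slightly with CCl4, by 0.50 at day 84 (adjusted p = 0.0167) and 0.41 at day 28 (adjusted p = 0.0462).

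Of 18 tested genes of 25 in the glycogen list, 3 rose and 10 fell in CCl4 livers of day 84 (72.2% called, against 64.3% of all genes), and 3 rose and 11 fell in those of day 28 (77.8% against 59.7%). For DEN, 3 rose and 6 fell at day 84 (50% against 52.7%), and 0 rose and 3 fell at day 28 (16.7% against 15%), shares near that of all genes. Ppp1r3b, the other main glycogen-targeting subunit of liver, fell in all 4 comparisons with control, 5.83-fold with CCl4 and 3.32-fold with DEN at day 84, and 9.03-fold and 2.00-fold at day 28 (adjusted p at most 0.0434). Pygb, the brain glycogen phosphorylase, rose 2.78-fold in CCl4 livers and 3.62-fold in DEN livers of day 84, and 2.14-fold in CCl4 livers of day 28. The branching enzyme Gbe1 fell 2.36-fold with CCl4 at day 84 and 2.54-fold at day 28.

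Among 21 tested genes of glucose transport and of the control of glucose phosphorylation, 4 rose and 11 fell at day 84, with CCl4 as with DEN (71.4% called, against 64.3% and 52.7% of all genes). At day 28, 6 rose and 10 fell in CCl4 livers (76.2% against 59.7%), and 3 rose and 2 fell in DEN livers (23.8% against 15%). Slc16a3, a lactate exporter, rose 8.87-fold with CCl4 at day 84 (adjusted p = 6.04e-06). Of 13 genes of the fructose and pentose phosphate pathways, 2 rose and 6 fell with CCl4 at day 84 (61.5% called, near the share of all genes), and 5 rose and 4 fell with DEN (69.2% against 52.7%). With CCl4 at day 28, 2 rose and 6 fell (61.5% against 59.7%), and with DEN 0 rose and 2 fell (15.4% against 15%). Ketohexokinase (Khk), which traps fructose in liver, fell in all 4 comparisons, by 1.15 and 0.67 with CCl4 and DEN at day 84 and by 1.37 and 0.49 at day 28. The DEN fall of Khk at day 84 rests on the scaling, since spike-in scaling raised that comparison by 0.72. Its DEN fall at day 28 was little more than the spike-in shift of 0.41. Akr1b1, aldose reductase, rose 2.70-fold with CCl4 and 3.25-fold with DEN at day 84.

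Of 25 hormone and transcription regulators of liver glucose metabolism, 1 rose and 14 fell in CCl4 livers of day 84 (56% lower, against 36.3% of all genes), and 2 rose and 14 fell in DEN livers (56% against 31.1%). At day 28, 1 rose and 15 fell in CCl4 livers (60% lower, against 33.6%), and 1 rose and 9 fell in DEN livers (36% against 7.19%). The 4 medians ran from -0.60 to -0.31, against -0.097 to -0.044 over all genes. Each was smaller in size than the shift that spike-in scaling gave. That shift was 0.56 with CCl4 and 0.72 with DEN at day 84, and 0.80 and 0.41 at day 28. The direction of these medians thus rests on the scaling, while a shift by a constant per array leaves their gap to all genes as it was. The lists were not read after quantile normalization, which does not shift all genes alike. Mlxipl, which encodes the carbohydrate-sensing factor ChREBP, fell by 1.05 with CCl4 and 0.90 with DEN at day 84 (adjusted p = 7.92e-06 and 5.76e-05). Gcgr, the glucagon receptor, fell by 1.09 with CCl4 at day 84 and 0.98 at day 28. Hnf4a, a hepatocyte transcription factor, fell by 1.47 with CCl4 and by 0.67 with DEN at day 28. Nr3c1, the glucocorticoid receptor, fell by 0.98 with DEN at day 84 and by 0.84 at day 28. Hnrnpa1, a splicing factor, rose by 1.24 with CCl4 and 0.78 with DEN at day 84, and by 1.57 with CCl4 at day 28. Myc rose 4.50-fold with DEN at day 84 (adjusted p = 0.00128).

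**Figure D5:**
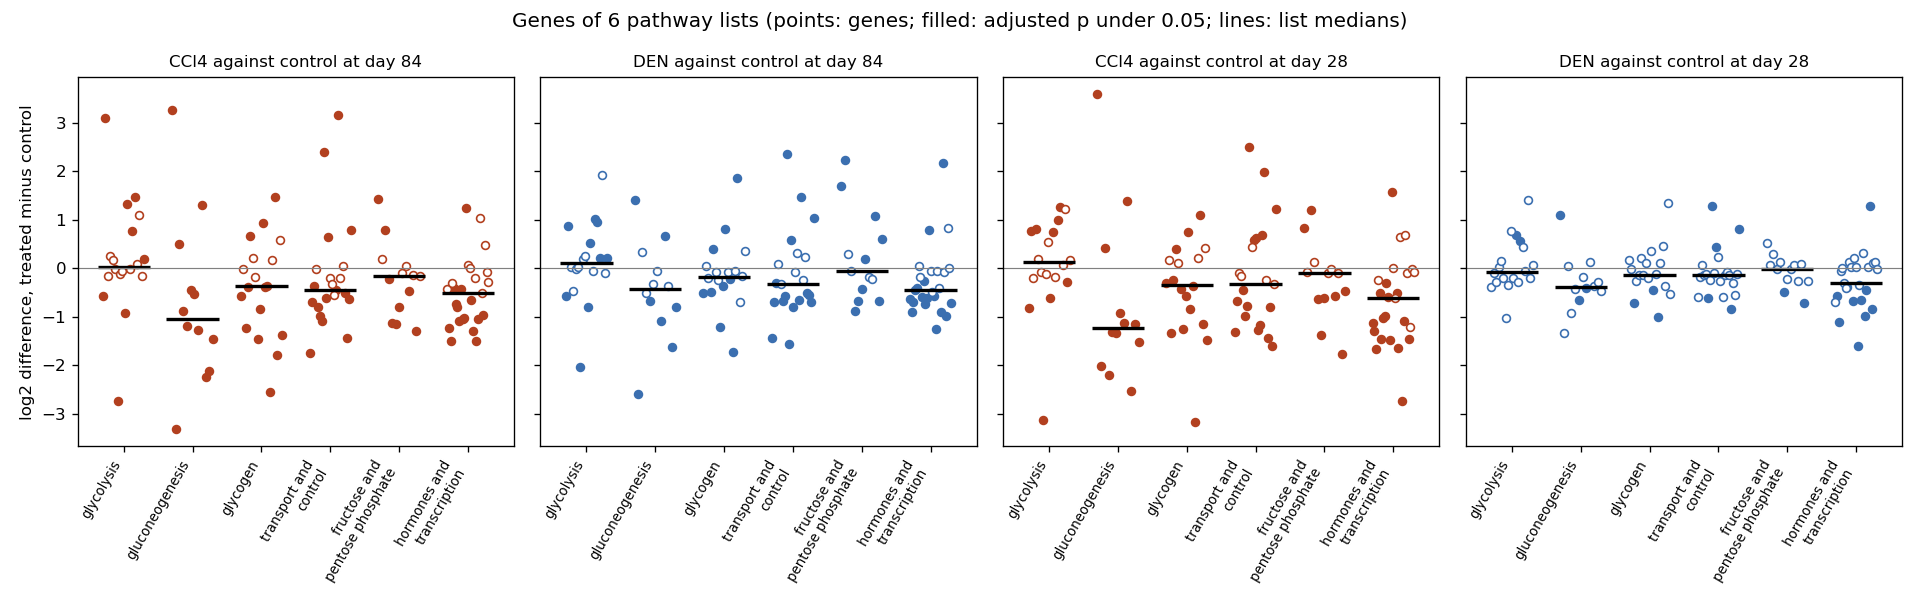
Log2 differences from control of the same day (vertical axis) for the genes of 6 pathway lists (horizontal axis), in 1 panel per comparison. Points are genes, filled where the adjusted p was under 0.05, and lines are list medians. The gluconeogenesis medians with CCl4 lie at -1.04 at day 84 and -1.23 at day 28.

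The genes most like each of the 8 over the 18 arrays were listed by Pearson correlation, as a description only, since the arrays share the 6 groups and the scaling. Pklr was closest to Sdhb, a respiratory chain subunit (r = 0.989), and to Khk (0.988). Pkm was closest to Selenom (0.989) and Emp3 (0.986). Hk1 was closest to Disp1 (0.955) and Tmsb10 (0.951), and Hk2 to Slc9a5 (0.908) and C3h9orf50 (0.901). Aldoa was closest to Aldoart2 (0.992) and the adenine nucleotide carrier Slc25a4 (0.976). Aldoart2 is a retrogene copy of Aldoa, and whether either probe also binds the other's RNA was not tested. Fbp1 was closest to Apoc3, an apolipoprotein (0.991), and Pccb, a propionyl-CoA carboxylase subunit (0.991). Pck1 was closest to Dmgdh (0.969) and Mfsd2a (0.968), and Ppp1r3c to Cdc42ep4 (0.980) and the lipid droplet gene Cidec (0.958).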

How the data were processed

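RNA of 18 livers was measured on Agilent arrays, 1 rat per array. Feature Extraction 10.7.1.1 made the spot intensity values, per the file headers and the submitters' processing notes, and its processed signal, already corrected for background, is used here. The authors' deposited value table is a linear ratio and equals that signal divided by 1 constant per array (100% of probes within 0.01 log2). Precision is limited by 3 arrays per group.

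Here log2 processed signals were scaled by the array's 75th percentile. Of 61537 probes, 28206 matched 1 current rat gene by RefSeq accession (15645 genes), 18 outlier probes were left out and 0 were saturated. A probe was kept if it was well above background in each array of some group, and the brightest probe on average stood for its gene, which left 10914 genes. One limma 3.58.1 model (lmFit and eBayes, R 4.3.3) was fitted to all arrays, with Benjamini-Hochberg adjustment over genes in each of 9 comparisons, after tests on simulated data. The 8 genes, 3 partners (Pck2, Fbp2 and G6pc1) and 6 pathway lists were chosen with earlier results of these data known. From each list, up to 3 called genes per direction with the smallest adjusted p could be named in each comparison with control, and for likeness the 2 nearest genes. A few of them are left out of the text. The probes were designed on an older build (rn4) than the RefSeq promoter table (GRCr8), so probes are given no positions. Alternatives were normexp with an offset of 50, other scalings, filters and probes, slide and replicate blocks, fewer groups and leaving out arrays. They were run for the 8 genes and the counts of called genes, and some of them for the within-array differences. The partners alone, the pathway lists and the markers were read with the 75th percentile only. The R package data.table (version 1.17.8) read the files, and figures were drawn with matplotlib 3.10.9 (Python 3.11.15).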

Additional observations from a re-analysis of the deposited data

How the results depend on the processing

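Calls of CCl4 against control were the steadiest: the 7 genes besides Hk2 kept direction and call under the alternatives run, except Hk1 at day 28 with normexp (0.28) and Pck1 at day 84 on 1 slide (-1.20), though the sizes moved (Fbp1 to -0.30 and -0.38 at day 84 and day 28 under spike-in scaling). Over the 8 genes and 9 comparisons, 886 values kept direction and call, 37 lost the call, 26 gained one and 26 changed sign, leave-one-out fits aside. The tally includes alternatives that could change little. With no filter on dim probes the log2 values stayed the same, and the authors' value table gave nearly the same counts of called genes. For DEN against control at day 84, 1 slide and only the groups compared were the same fit (5707 genes called). Precision is limited by 3 arrays per group and, for Hk2, by signal near background, and the cause of each change was not tested.

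Scaling to spike-in probes raised treated arrays as a whole, by 0.56 (CCl4) and 0.72 (DEN) at day 84 and by 0.80 and 0.41 at day 28 on the log2 scale relative to the 75th percentile. The share of called genes that were higher was then 89.3%, 96.5%, 94.2% and 98.1% for CCl4 and DEN at day 84 and CCl4 and DEN at day 28, against 43.5%, 40.9%, 43.7% and 52.1% with the 75th percentile (65.0% after quantile normalization for DEN at day 28). It was 34.3% and 87.4% for CCl4 against DEN at day 84 and day 28 (54.0% and 45.2% before), 30.8% and 91.5% for the day differences of CCl4 and DEN (58.2% and 47.6% before) and 72.1% for controls (45.5% before).

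Counts of called genes moved by over 1.5 times as follows. For the CCl4 day difference (658) they were 1163 with normexp, 286 with spike-in scaling, 397 with no filter, 402 with slide as a block, 369 with only the groups compared and 382 to 1360 leaving out 1 array, the highest without CCl4 replicate 2 of day 28. For the DEN day difference (1752) they were 895 with spike-in scaling and 874 to 2130 leaving out 1 array. For DEN against control at day 28 (1639) they were 3611 with spike-in scaling, 789 on 1 slide and 700 to 1319 leaving out 1 array. For controls (1066) they were 444 with spike-in scaling, 49 with slide as a block and 568 to 873 leaving out 1 array. For CCl4 against DEN at day 84 (3743) they were 2012 with slide as a block and 1663 on 1 slide. Testing all 33790 probes gave 19727 and 15796 for CCl4 and DEN at day 84, 18554 and 4025 at day 28, 9076 and 13703 for CCl4 against DEN at day 84 and day 28, 1382 and 3897 for the day differences of CCl4 and DEN and 2518 for controls.

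With normexp the sign turned for Hk2 with CCl4 at day 84 (-0.035) and day 28 (-0.24), with DEN at day 84 (-0.37) and day 28 (-0.16) and for CCl4 against DEN at day 28 (-0.075), and for Hk1 in CCl4 against DEN at day 84 (-0.016). With spike-in scaling it turned for Fbp1 with DEN at day 84 (0.021) and day 28 (0.056), for CCl4 against DEN at day 84 in Hk1 (-0.14) and Aldoa (-0.018), for the DEN day difference in Hk2 (0.31) and Pck1 (0.13), for the CCl4 day difference in Hk1 (-0.13), Pklr (-0.18) and Pkm (-0.085), and between controls in Aldoa (0.073) and Pkm (0.095). Median scaling turned the DEN day difference of Hk2 (0.011), quantile normalization the control value of Fbp1 (0.0084) and a second probe that of Hk1 (-0.24). Slide as a block turned Pck1 in CCl4 against DEN at day 84 (0.020, also on 1 slide) and the control values of Aldoa (0.59), Hk1 (-0.030) and Pkm (0.69). Within-array differences moved with normexp: Pkm minus Pklr to 3.60 and 1.37 with CCl4 and DEN at day 84. With the mean of probes, Pkm minus Pklr with DEN at day 84 was 1.76.

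Replicate numbers did not pair samples: deviations of same-numbered livers correlated between -0.13 and 0.13, with 3 of 18 pairs over 0.1. With the replicate block, 6866 and 5509 genes were called for CCl4 and DEN at day 84, 6359 and 1306 at day 28 and 237 for controls, and the control value of Pkm was 0.045. The block ended the DEN calls of Pck1 and Pkm at day 84 (adjusted p = 0.0501 and 0.0518), that of Hk2 in CCl4 against DEN at day 84 (0.0516) and that of Ppp1r3c between controls (0.0630), and the DEN day differences of Aldoa and Ppp1r3c passed with it (0.0492 and 0.0405). With only the groups compared, Pck1 passed between controls (-0.52, adjusted p = 0.0288).

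Leaving out 1 array also turned values that had not passed. These ran from -0.17 to 0.19 (Hk1) and -0.027 to 0.34 (Aldoa) for CCl4 against DEN at day 84. For the DEN day difference they ran from -0.37 to 0.42 (Hk2), -0.52 to 0.040 (Pck1) and -0.041 to 0.10 (Pkm). For the CCl4 day difference they ran from -0.10 to 0.23 (Hk1), -0.0068 to 0.71 (Hk2), -0.35 to 0.30 (Pklr) and -0.081 to 0.53 (Pkm). Control values ran from -0.089 to 0.00045 (Aldoa) and -0.11 to 0.038 (Pkm), and Pck1 minus Pklr with CCl4 at day 84 from -0.78 to 0.17.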
